A study of Homo sapiens with 4 samples.

Results

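The proteasome genes described here were the 44 protein-coding genes, of 58302 genes listed, whose symbols start with PSMA, PSMB, PSMC, PSMD or PSME followed by a digit. The choice used symbols and no expression value. By role the list held 7 constitutive alpha and 7 constitutive beta subunits of the core particle, 3 immunoproteasome beta subunits, 6 ATPase and 11 non-ATPase subunits of the regulatory particle, 3 assembly chaperones, 4 activators and 2 tissue-restricted core subunits. The last of the 44 was PSMC3IP, which has a proteasome-like symbol and encodes a meiotic recombination factor, so it is no proteasome subunit. By role it was set apart, but counts and medians of all members below include it unless stated.

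Expression was measured by mRNA sequencing in HepG2, a human hepatocellular carcinoma cell line of WT genotype by the labels. One culture each was treated with 1 mM melatonin, the pineal hormone, or with the solvent DMSO, for 24 h or for 48 h. This gave 4 libraries, 1 per condition and none with a replicate, which are always listed below with the 24 h cultures before the 48 h cultures and, at each time, with DMSO before melatonin. Without replicates the spread between cultures is unknown, and no p-value was computed for a condition. As bulk libraries, they also cannot tell a change in every cell from a change in the share of cells that express a gene.

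The proteasome degrades proteins that carry a ubiquitin chain. Its barrel-shaped core is built of rings of alpha subunits, which gate the entry, and rings of beta subunits, of which 3 kinds cut proteins. The regulatory particle caps the core, and in it the ATPase subunits unfold the substrate while non-ATPase subunits bind and remove ubiquitin. In cells exposed to interferon the cutting beta subunits are replaced by the immunoproteasome subunits, which favour peptides for MHC class I, and the activators are alternative caps that open the core without ubiquitin. Hepatocytes and the tumours that arise from them depend on the complex for the turnover of the many proteins they make.

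Levels are given in FPKM as the authors deposited them, that is, in fragments divided by the length of the gene in kilobases and by the size of the library. The whole reads behind them were recovered and summed to 21616676 to 23086025 reads on genes per library, while the library sizes that the FPKM imply were 18357838 to 22205042. The share of reads on mitochondrial genes ran from 9.77% with DMSO at 48 h to 19.96% with DMSO at 24 h. All 7 hepatocyte markers were at 34.9 FPKM or more in every library, and their summed level was 8704, 8762, 8029 and 6965 FPKM in the order given. The 4 leukocyte, 2 endothelial and 2 fibroblast markers reached at most 0.581, 0.940 and 0.0777 FPKM, with CD3E and COL1A2 at 0 reads in all 4 libraries. Intervals on FPKM values and their ratios are 95% intervals of the reads (exact Poisson and exact binomial), and cover counting error only.

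Of the 44 genes, 42 had reads in every library. The 43 genes without PSMC3IP summed to 1492, 1354, 1162 and 1097 FPKM in the 4 libraries. Within a library the levels differed widely between genes. In DMSO 24 h the upper quartile of the 42 genes with reads was 5.01 times the lower, and over the 31 constitutive subunits alone it was 3.95 times the lower. The plot of levels by gene and library shows this order, which was alike in the 4 libraries at its top and bottom. Of the 41 pairs of neighbours in the order of FPKM, 23 to 27 per library had overlapping counting intervals and so could not be ranked.

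**Figure D1:**
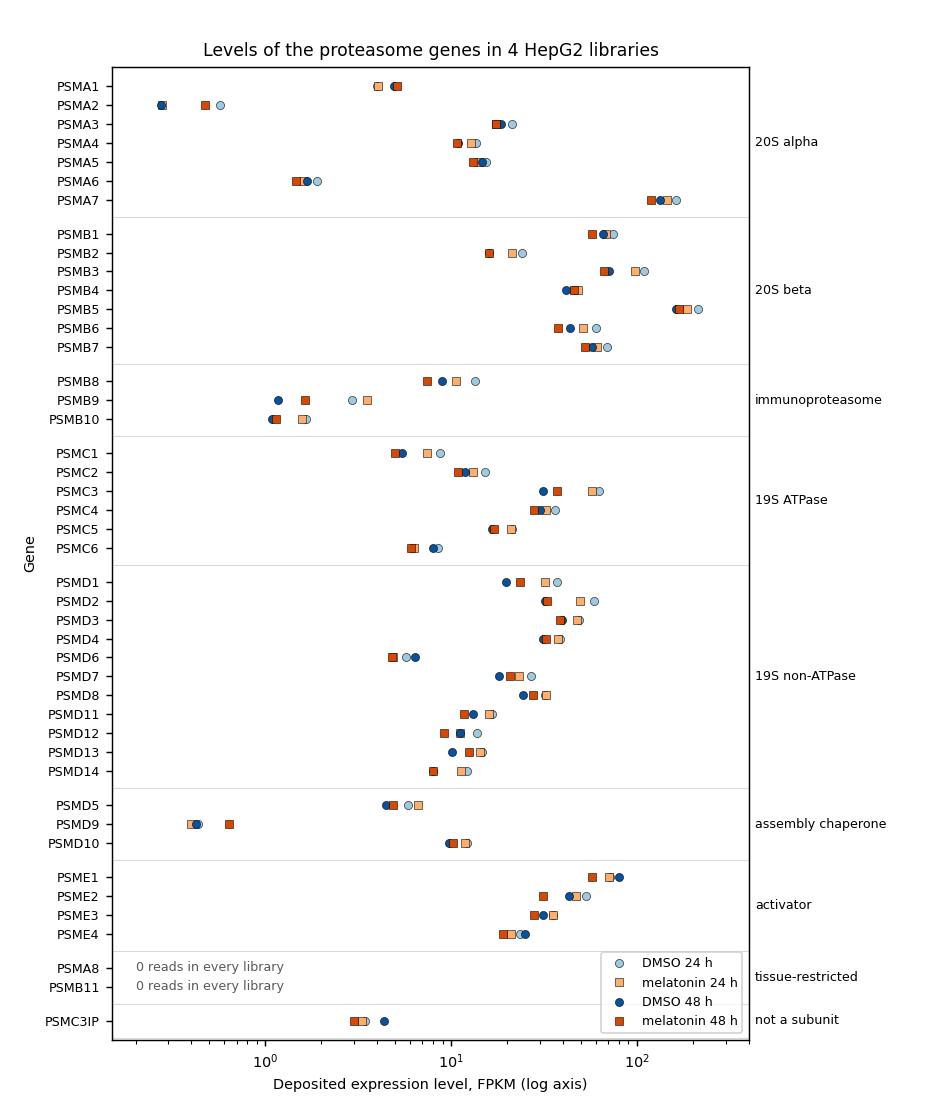
Deposited FPKM (log axis) of the 44 genes, grouped by role, with 1 point per library and no replicates. PSMB5 and PSMA7 are highest in every library, PSMA2 and PSMD9 lie below 1 FPKM, and PSMA8 and PSMB11 had 0 reads.

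Among the cutting subunits of the core, PSMB5 carries the chymotrypsin-like activity and had the highest FPKM of all 44 genes in each library. Its level was 213 and 186 FPKM at 24 h (DMSO first, then melatonin), and 162 and 168 FPKM at 48 h. PSMB6, the caspase-like subunit, was at 60.0, 51.2, 43.5 and 37.6 FPKM in the same order, and PSMB7, the trypsin-like subunit, was at 68.6, 61.2, 57.5 and 52.2. All 3 were highest in DMSO 24 h. The alpha subunit PSMA7 was second in every library, at 163, 145, 133 and 118 FPKM. The non-cutting beta subunit PSMB3 was the next by the mean over libraries, at 109, 97.6, 70.5 and 66.5 FPKM.

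The immunoproteasome subunits were far below their constitutive counterparts. PSMB8, the counterpart of PSMB5, was at 13.4, 10.6, 8.98 and 7.41 FPKM. PSMB9, the counterpart of PSMB6, was at 2.94, 3.53, 1.17 and 1.63 FPKM, and PSMB10, the counterpart of PSMB7, at 1.65, 1.57, 1.08 and 1.14. PSMB10 rested on 44 to 59 reads per library, the fewest of the members above 1 FPKM. PSMB11, which replaces PSMB5 in the thymus, and PSMA8, an alpha subunit of the testis, had 0 reads in all 4 libraries. The floor of 3 reads corresponds to 0.0640 to 0.0774 FPKM for PSMB11 and to 0.0713 to 0.0863 FPKM for PSMA8.

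In the regulatory particle, the summed FPKM of the 6 ATPases was 153, 138, 103 and 104, and that of the 11 non-ATPase subunits was 305, 279, 214 and 222. The 24 h libraries were thus above the 48 h libraries in both groups. PSMC3 was the highest ATPase gene in each library, and PSMC1 and PSMC6 the lowest pair. Among the non-ATPase genes PSMD2, a scaffold that docks carriers of ubiquitinated proteins, was highest at 24 h with 58.9 and 49.3 FPKM, and PSMD3 was highest at 48 h with 39.7 and 38.5.

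The lowest levels above 0 came with a limit of annotation. PSMA2, an alpha subunit that every proteasome contains, was at 0.572, 0.277, 0.273 and 0.473 FPKM, on 56, 30, 32 and 56 reads. PSMD9, an assembly chaperone, was at 0.435, 0.399, 0.421 and 0.636 FPKM. Both, with PSMA1, PSMA6 and PSMB10, lie within or beside a second protein-coding gene on the same strand that reads through them in GENCODE 44. The share of the canonical transcript covered by the second gene was 100% for PSMA2, 81.4% for PSMA6, 67.0% for PSMA1, 56.1% for PSMB10 and 28.8% for PSMD9. These 5 genes were 4 of the lowest 5 and 5 of the lowest 7 of the 42 genes with reads, with a median of 1.36 FPKM (mean over libraries) against 22.2 FPKM for the other 37. The reads listed for the second genes were few, at most 92 for that of PSMB10, at most 42 for that of PSMA6 and at most 2 for those of the other 3, and how reads shared by 2 genes were counted was not tested.

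Length adds a second limit to comparisons of levels between genes. The deposited gene length was a median of 1.83 times that of the canonical transcript over the 44 genes, from 1.06 times for PSMA8 to 6.70 times for PSMD6. When FPKM was recomputed on the canonical transcript length, PSMB5 and PSMA7 stayed first and second by the mean over libraries, PSME2 moved from rank 11 to rank 3, and PSMA2, PSMD9 and PSMB10 stayed the lowest 3. PSMA1 moved from rank 36 to 34 and PSMA6 from 39 to 35. On this length 3 of the lowest 5 genes with reads, instead of 4, were among those overlapped on the same strand. Opposite-strand genes covered 83.2% of the canonical transcript of PSMC1, 57.2% of PSMC3IP and 51.6% of PSMD7, and whether the counting used strand is not stated. Processed pseudogenes with PSM symbols could share reads with their parent genes. Of 30 listed, 18 had no reads, and the 2 with the most were PSMC1P1, with 38 to 55 reads per library, and PSMA6P1, with 30 to 46.

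The 44 genes lie on 16 chromosomes of hg38, with 8 each on chromosomes 14 and 17. PSME1 (chr14:24136158-24138967) and PSME2 (chr14:24143362-24147570) are neighbours on chromosome 14, where PSMB5 (chr14:23016543-23035230) and PSMB11 (chr14:23042167-23044276) also lie side by side. PSMB8 (chr6:32840717-32844703) and PSMB9 (chr6:32844136-32859585) lie in the MHC region, where the span of PSMB9 also holds TAP1, which pumps peptides to MHC class I, on the opposite strand.

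Promoter sequence was available for 39 of the 44 genes from the RefSeq table on GRCh38.p14, as windows of 250 bases before to 50 bases after each start. PSMA7, PSMB1, PSMB6, PSMB7 and PSMD4 had no entry. Both strands were searched for the letters TGACNNNGC, the antioxidant response element that NFE2L1 and NFE2L2 bind with a small MAF protein, for CCAAT, the box bound by nuclear factor Y, for GCGCA and GCGC parted by any 1 base, the core of the nuclear respiratory factor site, and for GAAA repeated after any 2 bases, the core of the interferon-stimulated response element, which was added after values were seen. No matches of different motifs overlapped in these genes. TGACNNNGC was found for 13 of 39 genes (33.3%) against 16.1% of all 27305 genes in the table. CCAAT was found for 20 (51.3%, against 39.7%), the nuclear respiratory factor core for 5 (12.8%, against 6.98%) and the interferon element core for 6 (15.4%, against 4.38%). The median GC content was 61.0% in these windows and 58.3% in all. The matches are descriptions of letters and not of bound sites.

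The runs below show the interferon element core, in capitals, in the 4 immunoproteasome and activator genes that hold it, and in TAP1, TAP2 and TAPBP, peptide loading genes of MHC class I. They are shown because 2 of the 4, PSME1 and PSME2, had the largest falls of all members with melatonin at 48 h, while the other 2 did not pass the same threshold. Each run is written 5' to 3' on the strand given.
PSMB8 (chr6:32844032-32844061, plus strand): aggaggaagtGAAAGCGAAAgccacagatc
PSMB10 (chr16:67936852-67936881, minus strand): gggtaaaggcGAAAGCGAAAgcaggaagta
PSME1 (chr14:24136189-24136218, minus strand): accgcgaaggGAAAGCGAAAgcggtagggc
PSME2 (chr14:24146619-24146648, minus strand): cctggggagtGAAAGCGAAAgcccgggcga
TAP1 (chr6:32853813-32853842, plus strand): ccatttagggGAAAGCGAAAtcgaaagcgg
TAP2 (chr6:32838778-32838807, minus strand): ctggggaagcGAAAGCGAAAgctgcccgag
TAPBP (chr6:33314073-33314102, minus strand): ggaggaaagtGAAAGTGAAAggaggaagag
The letters between the repeats are GC in the first 6 and GT in TAPBP, and TAP1 and TAPBP each hold a second match that overlaps the one shown. The log2 fold change of TAP1 with melatonin at 48 h was -0.01, which turned to above 0 in 3 of the 4 other scalings. The match of PSME1 begins 5 bases after the start of its promoter window's gene, and those of PSMB10 and PSME2 end 11 and 18 bases before it, while that of PSMB8 spans the start. In GENCODE 44 these 4 runs touch exons of the genes named. The other 2 members with a match were PSMA4 and PSMB4, both with other letters between the repeats.

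TGACNNNGC, again in capitals, is shown for the 3 activators that hold it and for 4 subunits of the core and the regulatory particle.
PSME1 (chr14:24136098-24136126, plus strand): atggcagggcTGACCCCGCctcctccatc
PSME2 (chr14:24146767-24146795, minus strand): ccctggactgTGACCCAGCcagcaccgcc
PSME4 (chr2:53971009-53971037, plus strand): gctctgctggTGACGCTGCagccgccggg
PSMB3 (chr17:38752627-38752655, plus strand): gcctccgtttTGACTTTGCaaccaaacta
PSMC4 (chr19:39971182-39971210, minus strand): tcctccatagTGACCAAGCcggcctctgt
PSMD3 (chr17:39980760-39980788, plus strand): tcccctttgtTGACTCGGCcatcggcctg
PSMD12 (chr17:67366724-67366752, minus strand): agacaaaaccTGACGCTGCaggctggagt
These include the 3 activators that fell with melatonin at 48 h, and the 4 subunits, which did not pass the threshold in either melatonin comparison. The other members with this match were PSMA4, PSMB9, PSMC5, PSMD1, PSMD5 and PSMD9. In PSME1, PSMB3, PSMD3 and PSMD12 the run lies outside GENCODE 44 exons, before the start.

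The first comparison asked how 24 h of melatonin related to proteasome gene expression. Fold changes are on the log2(FPKM + 1) scale, that is, with 1 added to both FPKM before their ratio is taken, which understates the change of low genes, and 40 of the 44 genes had at least 1 FPKM in either library. None of the 40 was past 2-fold, against 4.35% of all 13582 genes tested. A second and smaller threshold was set at 25% higher or 20% lower on this scale, and below a gene rose or fell when it passed this threshold. None rose, against 13.4% of all genes, and 1 fell, against 15.5%. Most of the small differences were in 1 direction, since 35 of the 40 genes were lower with melatonin, against 46.5% of all genes. Their median was -0.14 against 0.02 for all genes tested. Without PSMC3IP 34 of 39 were lower, against the same 46.5%, at a median of -0.15. When the test was limited to protein-coding genes on 50 reads or more, a background chosen after seeing the data, 37 of 42 members were lower, against 42.3%. In that set none of the 42 was past 2-fold, against 0.571%, none rose, against 11.1%, and 1 fell, against 8.13%. By the plain ratio of FPKM the counting interval lay below 1 for 23 of the 40 members, above 1 for 2 and included 1 for 15. Such an interval narrows with the reads of a gene, and no share over all genes is given for these counts. The plot of fold changes of members and of all genes shows a narrow set of members to the left of the bulk of genes.

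This direction depended on the scale. Rescaling to TPM raised the median of all genes by 0.15, and 16 of 41 members were then lower, against 31.6% of all genes, and 25 higher, with a median of 0.012. When library size was the plain sum of reads 26 of 40 were lower, against 38.1%, at a median of -0.08. Relative to the median of all genes tested, the median of the members was at -0.20 to -0.13 in each of the scalings, filters and gene sets tried, so the members stayed below the bulk of genes while the sign of the difference itself was not fixed.

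**Figure D2:**
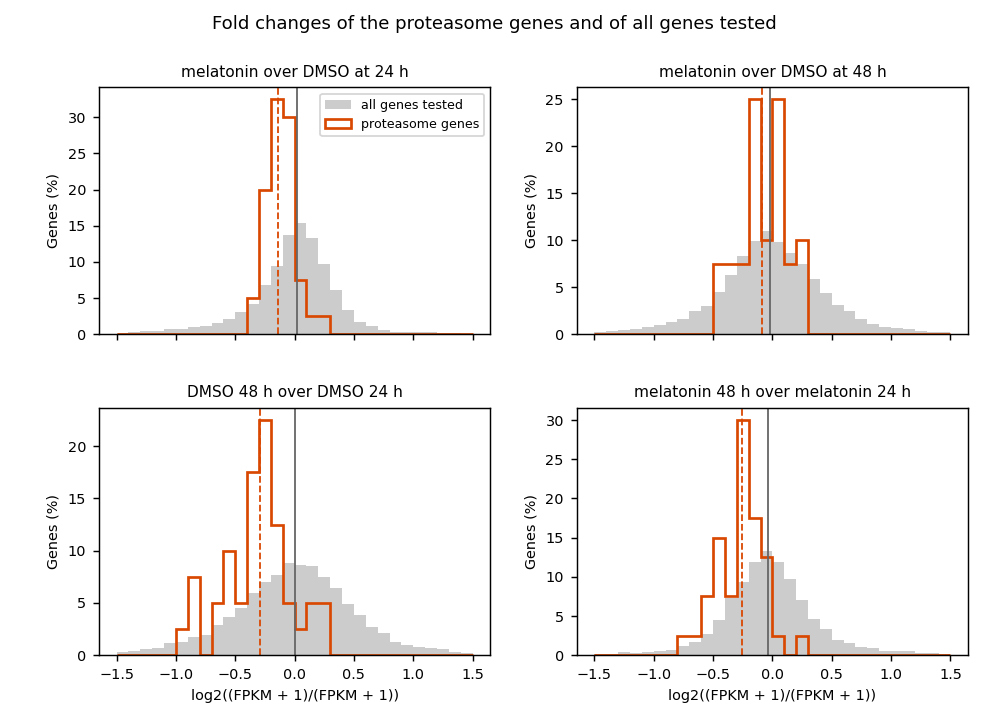
Share of genes (percent) by fold change on the log2(FPKM + 1) scale, for the proteasome genes tested (red outline) and all genes tested (grey), with medians as a dashed and a solid line, in the 4 comparisons. Fold changes beyond the axis are not drawn, and at 24 h the medians are -0.14 and 0.02.

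PSMC6, a regulatory ATPase, was the gene that fell. It was at 8.52 FPKM with DMSO and 6.34 with melatonin, a log2 fold change of -0.38 and a plain ratio of 0.744 (counting interval 0.683 to 0.811). It was lower with melatonin in each scaling, from -0.40 to -0.24. The next largest differences did not reach the threshold: -0.31 for PSMB8, -0.28 for the alpha subunit PSMA3, from 21.3 to 17.4 FPKM, -0.27 for PSMD12, from 13.7 to 11.2, and -0.25 for PSMD2. On the other side stood PSMB9 at 0.20, the chaperone PSMD5 at 0.16, from 5.84 to 6.64 FPKM, and the beta subunit PSMB4 at 0.09, from 45.2 to 48.4. PSMD8 and PSMA1 were both at 0.01, and PSMC3IP was at -0.04.

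By role, all 6 ATPases and all 4 activators had a lower FPKM with melatonin at 24 h, with medians of -0.18 and -0.09, although on the TPM scale 3 of the 6 and 1 of the 4 were lower. As deposited, so did 10 of the 11 non-ATPase subunits (median -0.09), 6 of the 7 constitutive beta subunits (-0.16) and 5 of the 6 alpha subunits tested (-0.14), against 5, 3 and 2 on the TPM scale. Over all genes 46.5% were lower as deposited and 31.6% on the TPM scale. The 3 immunoproteasome genes were split, with PSMB8 and PSMB10 lower and PSMB9 higher. PSMB10 differed by less than its counting interval, with a ratio of 0.954 (0.650 to 1.40), and so did PSMB9, with a ratio of 1.20 (0.976 to 1.48).

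At 48 h the members were less uniform. Again none of the 40 genes was past 2-fold, against 5.72% of 13805 genes tested, or 2.2% of protein-coding genes on 50 reads or more. None rose, against 20.1% of all genes, and 6 fell, against 21.7%. With 23 of 40 lower by any amount, against 52.5%, the members were close to the background, and their median was -0.09 against -0.02. Without PSMC3IP 22 of 39 were lower, against the same 52.5%, at a median of -0.08. The counting interval of the ratio lay below 1 for 16 members, above 1 for 8 and included 1 for 16, again without a share over all genes. In the scalings, filters and gene sets tried, the median of the members minus that of all genes ran from -0.08 to -0.03.

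The activators held 3 of the 6 genes that fell. PSME1, which with PSME2 forms the interferon-inducible activator ring, was at 71.8, 70.3, 79.7 and 57.4 FPKM. The 48 h melatonin library was the lowest of the 4 and the 48 h DMSO library the highest. The log2 fold change at 48 h was -0.47, with a plain ratio of 0.720 (0.682 to 0.760).

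PSME2 was at 53.0 and 46.9 FPKM with DMSO and melatonin at 24 h, and at 43.3 and 31.4 at 48 h, a log2 fold change of -0.45 and a ratio of 0.724 (0.687 to 0.763) at 48 h. PSME4, a nuclear activator, was at 23.6, 21.1, 25.0 and 19.1 FPKM in the same order, which gave -0.37 and a ratio of 0.766 (0.736 to 0.797) at 48 h. In all 3 genes melatonin 48 h was the lowest library. PSME3, the nuclear relative of PSME1, did not pass, at 35.3, 35.3, 31.0 and 27.8 FPKM and a log2 fold change of -0.15 at 48 h. The 3 activators that fell were lower in each scaling, at -0.53 to -0.40 for PSME1, -0.52 to -0.39 for PSME2 and -0.43 to -0.30 for PSME4, although PSME4 did not reach the threshold when mitochondrial reads were left out of the library size.

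The other 3 genes that fell at 48 h were PSMD6, PSMC6 and PSMC3IP. PSMD6, a non-ATPase subunit of the regulatory particle, was at 5.68 and 4.87 FPKM with DMSO and melatonin at 24 h and at 6.38 and 4.81 at 48 h, a log2 fold change of -0.35 at 48 h. PSMC6 was at 7.97 and 6.10 FPKM at 48 h, a log2 fold change of -0.34 and a ratio of 0.766 (0.705 to 0.832). PSMC6 was the sole member that fell at both times, against 7.45% of the genes tested at both, and in it both melatonin libraries lay below both DMSO libraries. It was lower in each scaling at both times, but it did not reach the threshold on the TPM scale or with the plain sum of reads at 24 h, nor at 48 h with the plain sum, without mitochondrial reads or when centred on the median of all genes. PSMC3IP, which is no subunit, was at 3.43, 3.30, 4.36 and 2.99 FPKM, with a log2 fold change of -0.42 at 48 h. PSMD6 was lower in each scaling but did not reach the threshold with the plain sum of reads or without mitochondrial reads, at -0.31 and -0.29. Of the 6 falls, 4 were left with the plain sum of reads, against 19.7% of all genes, and 3 without mitochondrial reads, against 18.5%.

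**Figure D3:**
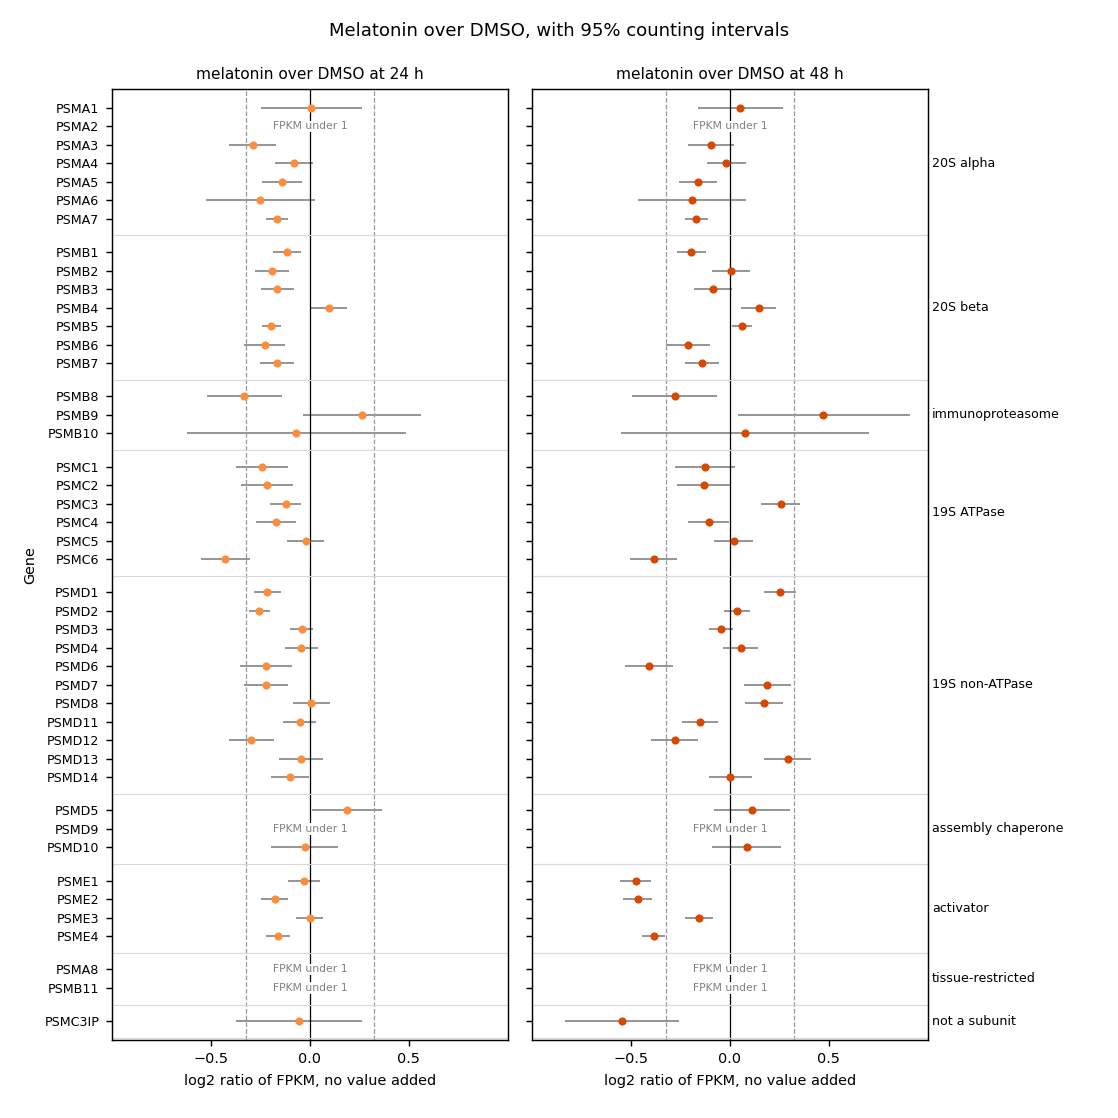
Log2 of the plain ratio of melatonin to DMSO FPKM for each gene at 24 h (left) and 48 h (right), with bars for the 95% counting interval and dashed lines at the smaller threshold. PSMC6 lies left of the dashed line at both times, and PSME1, PSME2, PSME4, PSMD6 and PSMC3IP at 48 h. As plain ratios, PSMB8 at 24 h (0.795) also lies left of the lines and PSMB9 at 48 h (1.39) right. Neither passed on the log2(FPKM + 1) scale.

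Higher values at 48 h stayed under the threshold. PSMB9 was at 0.27 on the log2(FPKM + 1) scale, and its plain ratio was 1.39 (1.03 to 1.88). PSMD13, a non-ATPase subunit, was at 0.27, from 10.2 to 12.4 FPKM, PSMC3 at 0.25, from 31.0 to 37.1, and PSMD1, a scaffold subunit, at 0.24, from 19.8 to 23.5. PSMD7, the partner of the deubiquitinase PSMD14, was at 0.18, from 18.2 to 20.7 FPKM. In these 4 subunits the DMSO 48 h library was the lowest of the 4, and the 24 h libraries were both above both 48 h libraries. PSMB5 and PSMB4 were at 0.06 and 0.14, and PSMD14 at 0.00. By role, the 4 activators had a median of -0.41 at 48 h, the 6 ATPases of -0.10, the 7 constitutive beta subunits of -0.08, the 6 alpha subunits of -0.10 and the 11 non-ATPase subunits of 0.04, which became -0.02 on the TPM scale.

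Side by side, 23 of the 40 members tested at both times were lower with melatonin at both, against 32% of the 12775 genes tested at both. Another 5 were higher at both, against 34.5%, and 12 were lower at 24 h and higher at 48 h, against 13.8%. As deposited, no member was higher at 24 h and lower at 48 h, against 19.6%. On the TPM scale 16 of 41 were, against 32.9% of all genes, among them PSME1, PSME3, PSME4 and PSMC3IP. Another 12 were lower at both on that scale, against 22.5%. With the plain sum of reads 5 of 40 were higher and then lower, against 21.9%, and without mitochondrial reads 1 was, PSME3, against 15.9%. The difference between the times was not tested, since each rests on 1 library per condition. The 5 genes higher at both times were PSMA1, PSMB4, PSMB9, PSMD5 and PSMD8. Of these, PSMB9, PSMB4 and PSMD5 were higher in each scaling at both times, although the counting intervals of PSMB9 at 24 h and of PSMD5 at 48 h included 1. PSMA1 and PSMD8 changed sign in at least 1 scaling at 24 h.

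As deposited, the medians of the members were farther from 0 over time in culture than with melatonin, although on the TPM scale that of melatonin over time, 0.013, was nearer to 0 than that of melatonin over DMSO at 48 h, -0.12. In DMSO, 35 of 40 members were lower at 48 h than at 24 h, against 49.7% of the 13854 genes tested, and 18 fell, against 24.9%. None rose, against 24.3%, and none was past 2-fold, against 7.74%, or against 4.09% among protein-coding genes on 50 reads or more. The median was -0.29 against 0.00 for all genes. The counting interval lay below 1 for 32 of the 40 members, above 1 for 5 and included 1 for 3, again without a share over all genes. The direction again depended on the scale, for rescaling to TPM raised the median of all genes by 0.46 and left 13 of 42 members lower, against 21.7% of all genes, and 29 higher, at a median of 0.18. The plain sum of reads raised it by 0.14, with 32 of 40 members lower, against 37.7%. Relative to all genes the median stayed at -0.32 to -0.28. The share of mitochondrial reads differed by the most between these 2 libraries, 19.96% and 9.77%, and its part in the difference was not tested beyond the alternative that leaves those reads out, which gave 35 of 40 lower, against 50.4%, and a median of -0.31.

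PSMC3, a regulatory ATPase, had the largest fall, from 62.6 to 31.0 FPKM, a log2 fold change of -0.99 and a ratio of 0.496 (0.465 to 0.528). PSMD1 fell from 37.1 to 19.8 FPKM (-0.88) and PSMD2 from 58.9 to 32.0 (-0.86), the latter with a ratio of 0.544 (0.522 to 0.566). These 2 are the large scaffold subunits of the regulatory particle. PSMB9 fell from 2.94 to 1.17 FPKM, -0.86 on the log2(FPKM + 1) scale, with a plain ratio of 0.398 (0.301 to 0.524) on 166 and 79 reads. PSMB3 fell from 109 to 70.5 FPKM (-0.63). All 5 were lower in each scaling, at -0.50 or below for PSMC3, -0.89 to -0.40 for PSMD1, -0.87 to -0.37 for PSMD2, -0.88 to -0.68 for PSMB9 and -0.64 to -0.13 for PSMB3.

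By role in DMSO, the genes that fell were 4 of the 7 constitutive beta subunits, all 3 immunoproteasome subunits, 4 of the 6 ATPases and 7 of the 11 non-ATPase subunits. Over all genes 24.9% fell. On the TPM scale these counts were 0, 1, 1 and 2, and 11.9% of all genes fell. The 3 immunoproteasome subunits were lower in each scaling. As deposited, no alpha subunit, chaperone or activator fell. The alpha subunits had a median of -0.15, against -0.39 for the constitutive beta subunits and -0.38 for the non-ATPase subunits, and on the TPM scale these medians were 0.28, 0.11 and 0.11. The 5 genes with a higher FPKM at 48 h were PSMC3IP at 0.27, PSMA1 at 0.24, PSME1 at 0.15, PSMD6 at 0.14 and PSME4 at 0.08. PSMC3IP, PSME1, PSMD6 and PSME4 were thus highest in DMSO 48 h, the control library of the 48 h comparison with melatonin, in which all 4 fell.

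**Figure D4:**
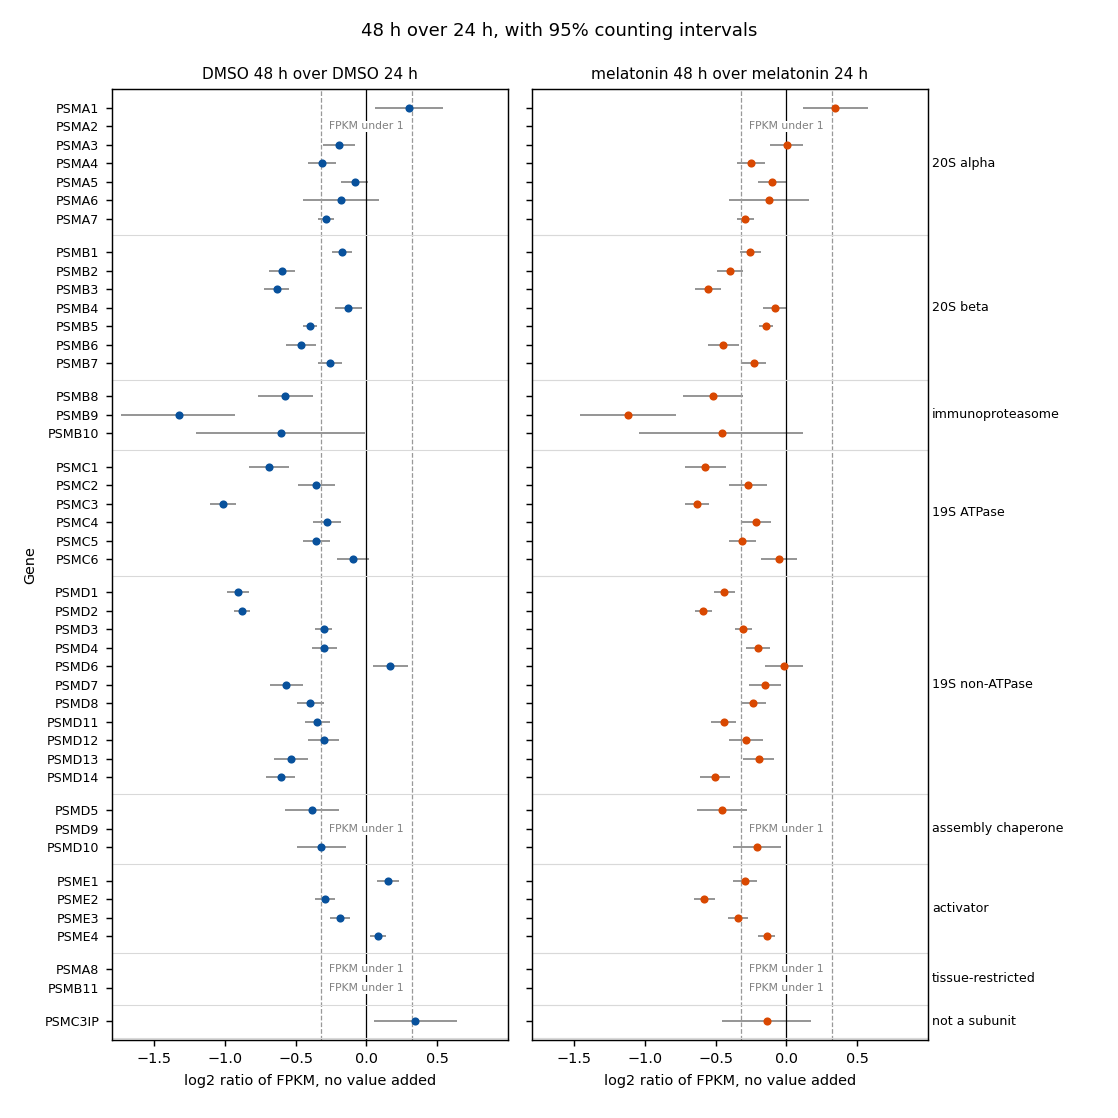
Log2 of the plain ratio of 48 h to 24 h FPKM for each gene in DMSO (left) and melatonin (right), with bars for the 95% counting interval and dashed lines at the smaller threshold. Most points lie left of 0 in both, and PSMB9, PSMC3, PSMD1 and PSMD2 are farthest left in DMSO.

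In melatonin, 38 of 40 members were lower at 48 h than at 24 h, against 54.9% of 13489 genes, and 14 fell, against 18.5%. None rose, against 15.3%, and none was past 2-fold, against 4.15%, or against 0.818% among protein-coding genes on 50 reads or more. The median was -0.26 against -0.04 for all genes, and on the TPM scale, which raised the median of all genes by 0.27, it was 0.013, with 20 of 42 members lower, against 26.8%, and 22 higher. The plain sum of reads raised the median of all genes by 0.11 and gave the members a median of -0.13. Relative to all genes it stayed at -0.24 to -0.17. The 5 largest falls were PSMB9 (-0.79), PSMC3 (-0.62), PSMD2 (-0.57), PSME2 (-0.57) and PSMB3 (-0.55), each lower in each scaling. PSMA1 was higher, at 0.28, from 4.03 to 5.12 FPKM, and PSMA3 was level, at 0.00.

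The 2 comparisons over time share no library. Of the 40 members, 34 were lower at 48 h in both treatments, against 39% of the 12731 genes tested in both. On the TPM scale 10 of 42 were, against 11.9% of 16298 genes. As deposited 11 fell in both, against 11.8%, which were PSMB2, PSMB3, PSMB6, PSMB8, PSMB9, PSMC1, PSMC3, PSMD1, PSMD2, PSMD11 and PSMD14. Of these 11, 9 were lower in each scaling in both treatments, and PSMB9 and PSMC3 passed the threshold in each, while PSMB6 and PSMD11 were higher in DMSO on the TPM scale, at 0.04 and 0.15. PSMB2 is a non-cutting beta subunit, PSMC1 a regulatory ATPase, PSMD11 a stabilizer of the contact between cap and core, and PSMD14 the deubiquitinase of the cap. PSMD14 went from 12.1 to 7.97 FPKM in DMSO and from 11.3 to 7.98 in melatonin, and PSMB2 from 24.1 to 15.9 and from 21.1 to 16.0. In both genes the melatonin and DMSO values at 48 h were within each other's counting error, with a ratio of 1.00 for each.

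The ratio of each immunoproteasome subunit to the subunit it replaces was taken within a library, which removes the library size. PSMB8 was at 6.28% (counting interval 5.72 to 6.88), 5.71% (5.17 to 6.30), 5.56% (5.01 to 6.15) and 4.40% (3.93 to 4.92) of the FPKM of PSMB5. The last lay below the interval of the other 3. PSMB9 was at 4.91% (4.16 to 5.76), 6.89% (5.95 to 7.94), 2.69% (2.12 to 3.38) and 4.33% (3.53 to 5.26) of PSMB6 in the same order. At each time the ratio was higher with melatonin, beyond the counting intervals, and in each treatment it was lower at 48 h.

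PSMB10 was at 2.40% (1.81 to 3.13), 2.56% (1.95 to 3.32), 1.88% (1.36 to 2.54) and 2.19% (1.60 to 2.92) of PSMB7, with intervals that all overlapped. The 3 pairs thus differed in direction, with PSMB8 over PSMB5 lower with melatonin at 48 h and PSMB9 over PSMB6 higher at both times. On the canonical transcript length the ratio of PSMB9 to PSMB6 became 8.43% in DMSO 24 h, 11.8% in melatonin 24 h, 4.63% in DMSO 48 h and 7.44% in melatonin 48 h, in the same order as before, since a change of length multiplies all 4 libraries alike.

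**Figure D5:**
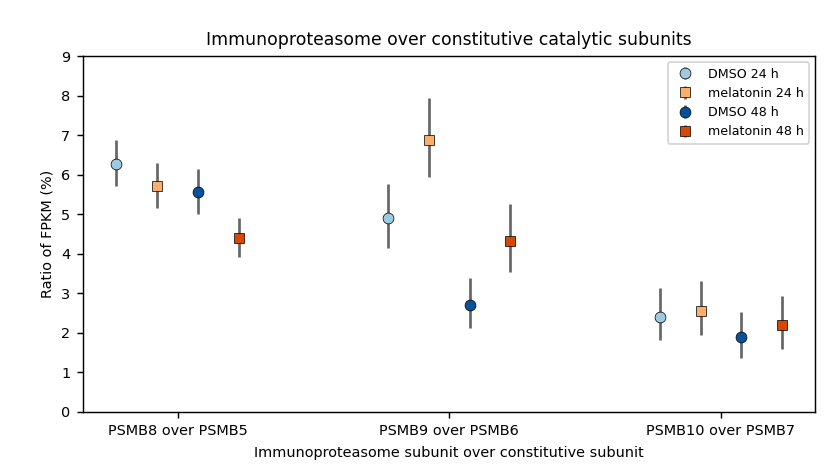
FPKM of each immunoproteasome subunit in percent of the constitutive subunit it replaces, for the 4 libraries, with bars for the 95% counting interval. PSMB9 over PSMB6 is higher with melatonin than with DMSO at both times, at 6.89% against 4.91% and at 4.33% against 2.69%.

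The other genes of the pathway were taken from 6 lists of assembly factors, associated factors, regulators of proteasome transcription, ubiquitin genes, shuttle proteins and MHC class I processing, of which 54 names were found in the files. Of 51 genes tested at 24 h, 4 rose and 5 fell, against 13.4% and 15.5% of all genes, and of 52 at 48 h, 1 rose and 11 fell, against 20.1% and 21.7%. Pooled, the lists thus held no larger share of rises or falls than all genes did, but this does not hold for each list alone. The pooled medians were 0.02 and -0.10. None was past 2-fold at 24 h and 2 were at 48 h.

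Among the 7 assembly and inhibitor genes, POMP, which guides the beta rings together, fell at both times, from 40.2 to 29.8 FPKM at 24 h (-0.42) and from 36.7 to 28.8 at 48 h (-0.34). PSMG4, a chaperone of the alpha ring, fell from 3.69 to 2.48 FPKM at 24 h (-0.43) and was at -0.28 at 48 h. In POMP, as in PSMC6, both melatonin libraries were below both DMSO libraries, and POMP too was lower with melatonin in each scaling but did not reach the threshold on the TPM scale at 24 h, at -0.25, nor at 48 h with the plain sum, without mitochondrial reads or when centred, at -0.32 to -0.27. PAAF1, which holds the ATPase ring apart during assembly, was at 3.12 and 3.49 FPKM at 24 h and at 1.45 and 2.64 at 48 h, a rise of 0.57 at 48 h.

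The regulators of proteasome transcription include NFE2L1 and NFE2L2, the factors of the antioxidant response element, and the small MAF proteins that pair with them. NFE2L2 rose from 16.8 to 22.8 FPKM at 24 h (0.42), and was at 19.9 and 21.5 at 48 h. NFE2L1 did not pass at either time, at 70.5, 73.1, 57.4 and 71.1 FPKM. All 3 small MAF genes fell with melatonin at 48 h, and MAFF and MAFK also at 24 h, with the same sign in each scaling. MAFF at 24 h did not reach the threshold on the TPM scale or with the plain sum of reads, at -0.23 and -0.29.

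MAFG was at 17.8, 18.6, 40.0 and 18.8 FPKM, so that its log2 fold change of -1.05 at 48 h went with a single high library, DMSO 48 h. MAFF was at 5.21, 3.86, 8.92 and 3.71 FPKM, with -0.35 at 24 h and -1.08 at 48 h. MAFK was at 15.6, 10.1, 23.0 and 12.0 FPKM, with -0.59 and -0.88. DMSO 48 h was the highest library in all 3. Of the 11 regulators, 1 rose and 2 fell at 24 h, against 13.4% and 15.5% of all genes. At 48 h none rose and 3 fell, against 20.1% and 21.7%.

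In the list of 13 MHC class I processing genes, which work on the peptides the immunoproteasome makes, 3 rose and 1 fell of 11 tested at 24 h. Over all genes 13.4% rose and 15.5% fell. At 48 h none rose and 5 fell of 12 tested, against 20.1% and 21.7%. HLA-E rose from 42.2 to 63.1 FPKM at 24 h (0.57), B2M, the light chain of class I molecules, from 39.0 to 50.8 (0.37) and HLA-B from 5.62 to 7.30 (0.33). ERAP2, which trims peptides, fell at both times, from 4.78 to 2.97 FPKM (-0.54) and from 3.11 to 1.57 (-0.68). TAPBP fell from 23.8 to 13.4 FPKM at 48 h (-0.78).

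TAP1, whose gene lies within the span of PSMB9, was at 14.6, 12.8, 13.0 and 12.9 FPKM, and did not pass in any of the melatonin comparisons. Reads of the TAP1 span and of PSMB9 on the opposite strand could be mixed if strand was not used. The span of PSMB9 also overlaps that of PSMB8 on the opposite strand. No exon of another gene overlapped the canonical transcript of PSMB9. That transcript has 1017 bp, against a deposited gene length of 3072 bp, and overlap in the rest was not tested. HLA genes are near copies of each other, so their reads could be split between them. The other 3 lists were quiet at 24 h, where no gene of the associated factors, the ubiquitin genes or the shuttle proteins rose or fell. At 48 h 2 of the 11 associated factors fell, against 21.7% of all genes, and no ubiquitin or shuttle gene passed.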

How the data were processed

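The 4 HepG2 libraries were mRNA-seq. The study's methods map paired-end reads to hg38 with MapSplice and name Cufflinks for expression, while the submitters' processing notes name Bowtie2 2.0.6, TopHat2 2.0.9, Cufflinks 2.1.1 and Cuffdiff 2.1.1. The authors deposited FPKM and a gene length in bp per Ensembl gene, and no counts. Multiplied by gene length, 100% of these values were whole multiples of what 1 read is worth in the library (tolerance 0.001), which gave the reads. Cufflinks usually assigns fractions of reads, and how whole reads arose is not stated.

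Members were found by symbol. Genes with at least 1 FPKM in either library of a comparison were tested, fold changes were log2((FPKM + 1)/(FPKM + 1)), and a gene was called past 2-fold, or past the smaller threshold at 25% higher or 20% lower. With 1 library per condition no p-value was computed. Each library enters 2 of the 4 comparisons, so melatonin and time comparisons share libraries, and they are given side by side. The members and all lists were chosen with earlier results of these data known. The genes named were the catalytic, immunoproteasome, activator, chaperone and tissue-restricted genes, the 5 largest differences per comparison and direction, the 3 highest and 3 lowest levels, PSMC3IP and, of the pathway lists, up to 5 falls and 5 rises past the smaller threshold. Other members named were chosen after their values were seen.

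The deposited gene length was close to the union of all exons, within 5% of that in GENCODE 44 for 29 of 44 genes. A length above that of the expressed transcript lowers the FPKM of that gene in all 4 libraries alike. Promoters came from RefSeq. Alternatives were a pseudocount of 0.1, no filter, a minimum of 5 FPKM, a 1.5-fold threshold, TPM, and other library sizes, and the closing section gives their effect. Python 3.11.15, numpy 2.4.6, pandas 2.3.3, scipy 1.17.1 and matplotlib 3.10.9 were used, and the scripts were tested on simulated data. The growth, protein and splicing experiments of the study were not analysed here.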

Additional observations from a re-analysis of the deposited data

Results flagged for a closer look

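Among the members and the genes of the pathway lists, 2 had a plain melatonin over DMSO ratio that changed direction between the times. It went past 25% higher or 20% lower one way at 24 h and the other way at 48 h, with both counting intervals excluding 1. No share of all genes that meet this rule is given. PSMA2 had a plain FPKM ratio of 0.485 at 24 h and 1.73 at 48 h, on 56 and 30 reads at 24 h and 32 and 56 reads at 48 h, and its levels were all below 1 FPKM. On the log2(FPKM + 1) scale PSMA2 was at -0.30 and 0.21, and passed the smaller threshold at neither time. HLA-B had a ratio of 1.30 at 24 h and 0.697 at 48 h. The difference between the times was not tested, since there is 1 library per condition.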

How the results depend on the processing

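No paired analysis was possible because both groups of each comparison have 1 library, and a fit over both times with time as a block was not run. The library size mattered most. With TPM the median of the proteasome genes turned from below to above 0 at 24 h (0.012), in DMSO over time (0.18) and in melatonin over time (0.013). The rises past the smaller threshold became 2 at 24 h, against 31.4% of all genes, and 3 at 48 h, against 23.3%. Over time they became 9 in DMSO, against 60.1%, and 3 in melatonin, against 41.1%. The falls over time became 4 in DMSO, against 11.9%, and 2 in melatonin, against 10.2%. With the plain sum of reads there were 0 falls at 24 h, against 12.2% of all genes. The median in DMSO over time was then -0.14, with 2 rises, against 33.8%, and 11 falls, against 17.1%. Melatonin over time had 1 rise, against 21.7%, and 8 falls, against 10.7%. Without mitochondrial reads, melatonin at 48 h had 2 rises, against 24.2%, and 3 falls, against 18.5%. On that scale DMSO over time had 1 gene past 2-fold, against 8.13%, and melatonin over time had 1 rise, against 18.4%. Centring on the median of all genes gave 2 falls at 24 h, for which no share over all genes is given.

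A pseudocount of 0.1 gave 2 falls at 24 h, 1 rise at 48 h, 2 genes past 2-fold and 1 rise in DMSO over time, and 1 past 2-fold and 1 rise in melatonin over time. A 1.5-fold threshold was passed by 6 genes in DMSO over time and by 2 in melatonin over time. No share over all genes is given for the counts with this pseudocount or this threshold. The canonical transcript length, an alternative chosen after seeing the data like the set of protein-coding genes, the set without PSMC3IP and the set without genes overlapped on the same strand, moved PSMB9 over PSMB6 in DMSO 24 h to 8.43%. Of the other values recomputed for the main results 139 moved by less than their counting error or by less than 1.5 times. No alternative could stand in for replicates. Depth limits mainly PSMB10, PSMA2 and PSMD9, which rested on 30 to 124 reads.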
